A study of Danio rerio with 2 samples.

Results

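Goblet cells were taken here as the intestinal cells of adult zebrafish that carried agr2 together with a second goblet gene. A cell was counted when it held at least 2 agr2 UMIs (unique molecular identifiers, the tags that count single captured transcripts), when agr2 made up at least 5 of every 10000 of its UMIs, and when at least 1 UMI of sytl2b, stard10 or fer1l6 was present. Of 11490 cells in 2 libraries, 557 met this rule and are called goblet-rule cells below. The wild-type library gave 400 of 5891 cells and the nod2-/- library 157 of 5599 cells. Measured transcripts chose these cells, so the levels of the rule genes are a description, and no test was made of goblet-rule cells against the rest.

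Goblet cells are secretory cells of the gut epithelium. They fold, glycosylate and pack mucus proteins in the endoplasmic reticulum (ER) and Golgi, store them in granules below the apical surface, and release them as the gel that keeps bacteria away from the epithelium. Agr2 is an ER protein of the disulfide isomerase family that, in mice, intestinal Muc2 needs to mature. Sytl2 proteins bind Rab27 on secretory granules, Stard10 transfers phospholipids, and Fer1l6 belongs to the ferlins, which bind membranes in response to calcium. NOD2 is a cytosolic receptor for muramyl dipeptide from bacterial cell walls.

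The study asked how loss of nod2 affects the intestinal epithelium. Whole intestines came from co-housed siblings of a heterozygous in-cross at 6 months of age, either wild type (WT, TL background, nod2+/+) or homozygous for a CRISPR-Cas9 deletion of 4 base pairs in the first coding exon of nod2 that shifts the reading frame. Each genotype was 1 library pooled from 5 fish, 2 males and 3 females, after enzymatic dissociation and a density gradient for live cells. With 1 library per genotype no difference has a replicate check and no p-value can be given. Intervals below are exact 95% binomial intervals and cover counting error only.

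The libraries held 34052268 UMIs (WT) and 22244173 UMIs (nod2-/-). Goblet-rule cells were deeper than the other cells, with a median of 5550.5 against 3177 UMIs per cell in WT and 4392 against 1892.5 in nod2-/-. Their median mitochondrial share was lower, at 3.37% against 6.97% in WT and 2.31% against 4.57% in nod2-/-. The rule asks for at least 2 agr2 UMIs and a second gene, which deep cells meet more readily. How far the rule itself set these differences was not tested. Both libraries shared 10 cell barcodes, and 0 of these belonged to a goblet-rule cell. The targeted gene, nod2, gave 16 UMIs over the WT goblet-rule cells against 7 over the mutant ones, or 4.65 and 5.74 UMIs per 1000000 (CPM). The log2 ratio of these was 0.30 (−1.22 to 1.66), and a count of transcripts does not show a frameshift, so nod2 itself does not check the labels here.

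The agr2 level spread widely among the goblet-rule cells. In WT it ran from 5.02 to 675 UMIs per 10000, with a median of 29.7 and quartiles of 12.8 and 66.1. In nod2-/- it ran from 5.06 to 988, with a median of 31.7 and quartiles of 12.3 and 101. The cells just below the rule's minimum stood at 4.89 in WT and 4.995 in nod2-/-, so the minimum fell within a continuous range and not in a gap. There were 77 WT and 35 nod2-/- goblet-rule cells under 10 per 10000, and 27 and 10 cells held exactly 2 agr2 UMIs. A further 49 WT and 60 nod2-/- cells met the agr2 part but lacked a second marker. Goblet-rule cells held 94.2% of all agr2 UMIs in WT and 86.3% in nod2-/-, which follows in large part from choosing them on agr2. They made up 6.79% and 2.80% of the cells and held 10.1% and 5.48% of all UMIs.

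The label was checked against 12 lists of markers of other cell types. A cell met a list when at least 2 of its markers were detected and their sum passed a minimum per 10000 UMIs. Leukocyte, stromal and hepatocyte lists were met by 0 goblet-rule cells in either library. Some other list was met by 186 WT cells (46.5%) and 85 nod2-/- cells (54.1%), against 82.5% and 82.9% of the other cells. Keratin markers were met by 4.75% and 10.2% of goblet-rule cells, against 0.219% and 0.79% of other cells. For enterocyte markers the shares were 25% and 29.3%, against 55.7% and 51.3%. The remaining lists went in both directions. The rule thus gathered cells that met no other list and cells that also carried markers of other types. No doublet caller was run, and the part that shared droplets had in these cells was not tested. The cells were therefore also described in groups that do not overlap. One of these, cells with at least 2 UMIs of an olfm4 gene or of cuzd1.2, was set apart after the values had been seen.

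Cells with no other list and no olfm4 or cuzd1.2 numbered 205 in WT and 66 in nod2-/-, 51.3% and 42.0% of the goblet-rule cells. Their median agr2 was 45.5 UMIs per 10000 in WT and 108 in nod2-/-, with median depths of 4612 and 3161.5 UMIs. Enterocyte markers were carried by 83 WT and 32 nod2-/- cells, with median agr2 of 15.3 and 19.4. Markers of lysosome-rich enterocytes, the absorptive cells that take up luminal protein, were carried by 35 and 24 cells, with median agr2 of 13.9 and 57.4. Acinar (exocrine pancreas) markers were met by 27 WT cells, with median agr2 of 53.0, and by 0 nod2-/- cells. Keratin markers (krt15, cnfn and others) were carried by 18 and 16 cells with median agr2 of 12.6 and 8.08, and olfm4 or cuzd1.2 by 20 and 15 cells with median agr2 of 15 and 12.7. The last 12 WT and 4 nod2-/- cells met other or several lists. In both libraries the cells with no other list had a higher median agr2 than those with enterocyte, keratin or olfm4 markers, yet the ranges overlapped throughout.

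**Figure D1:**
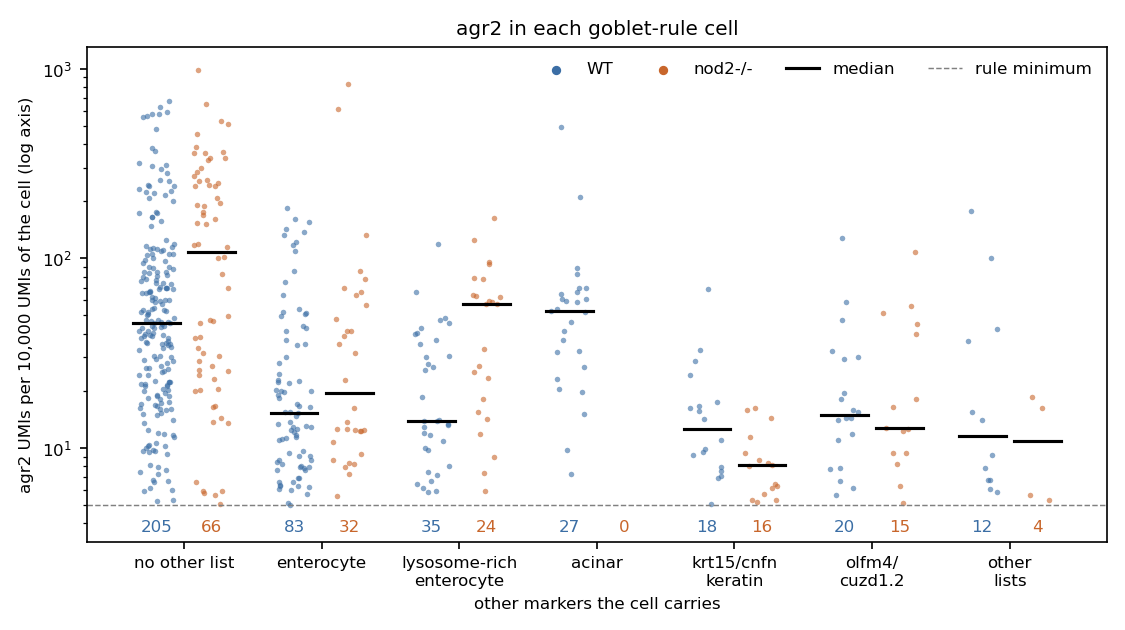
Each point is 1 goblet-rule cell, the vertical axis (log scale) gives its agr2 UMIs per 10,000 UMIs, and the horizontal axis sorts cells by the other markers they carry, with WT in blue, nod2-/- in orange, black bars for medians and the number of cells below. The highest medians are those of the 27 acinar-marker cells in WT (53.0) and of the 66 cells with no other list in nod2-/- (108), and the nod2-/- library has 0 acinar-marker cells.

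The cells with no other list carried the goblet genes at levels well above those of all goblet-rule cells pooled. agr2 reached 10230 CPM in WT and 14223 CPM in nod2-/- in these cells, against 4871 and 4726 CPM over all goblet-rule cells. sytl2b, the granule-docking gene, stood at 792 and 727 CPM, and fer1l6 at 160 and 226 CPM. spink2.6 (si:dkey-203a12.9 in the files), a Kazal-type protease inhibitor, stood at 4583 and 5799 CPM. The bHLH factor atoh1b, the zebrafish gene of the family that sets secretory fate, stood at 155 and 124 CPM. Acinar-marker cells of WT carried these goblet genes too, with agr2 lower at 5754 CPM, sytl2b at 898 CPM and spink2.6 at 4077 CPM. The pancreatic protease prss59.1 stood at 4283 CPM in them. Their apoa1a was 2369 CPM, against 554 CPM in WT cells with no other list. In enterocyte-marker cells agr2 was 3205 and 4133 CPM and apoa1a, an apolipoprotein of absorptive cells, was 14630 and 20934 CPM. In lysosome-rich enterocyte-marker cells agr2 was 2102 and 3159 CPM and fabp6, the ileal bile acid-binding protein, was 52424 and 53570 CPM.

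Keratin-marker cells differed from the cells with no other list in most of the goblet genes. Their krt15 was 4768 CPM in WT and 3826 CPM in nod2-/-, against 4 and 0 CPM in cells with no other list (krt15 was among the markers that chose them). Keratin krt91 was not among the choosing genes and stood at 10146 and 13337 CPM against 932 and 949 CPM. icn, an S100-type calcium-binding protein, was 25199 and 25505 CPM against 15589 and 22714 CPM. In contrast, spink2.6 was 132 and 58 CPM, rgs5a (a regulator of G-protein signalling) 31 and 10 CPM against 1407 and 1339 CPM, and atoh1b 4 and 0 CPM. The agr2 level was 2117 and 816 CPM. Keratin-marker cells were also the deepest, with median depths of 23145.5 and 16200 UMIs.

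The olfm4 and cuzd1.2 cells were a small group with genes that the rest of the goblet-rule cells hardly carried. Olfactomedin 4 proteins are secreted glycoproteins, and CUZD1 proteins carry CUB and zona pellucida domains. olfm4.1 was 10544 CPM in WT and 29526 CPM in nod2-/-, and olfm4.2 was 5530 and 13478 CPM (both share a symbol in the files and were told apart by identifier). These values chose the group. cuzd1.1, which did not, was 39788 and 66329 CPM against 8 and 18 CPM in the cells with no other list. spink4 was 906 and 2594 CPM against 16 and 22 CPM. The ER chaperone hsp90b1 (GRP94) was 570 and 1550 CPM against 269 and 337 CPM, and the disulfide isomerase pdia2 was 859 and 1216 CPM against 101 and 226 CPM. The goblet genes were lower here, with agr2 at 1878 and 2162 CPM, fer1l6 at 15 and 0 CPM, icn at 1959 and 636 CPM, and CABZ01080550.1 at 157 and 0 CPM against 2599 and 2031 CPM. Of the WT cells 17 carried both genes at 2 UMIs or more, as did all 15 of the nod2-/- cells, and 11 of 20 and 9 of 15 also met another marker list.

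**Figure D2:**
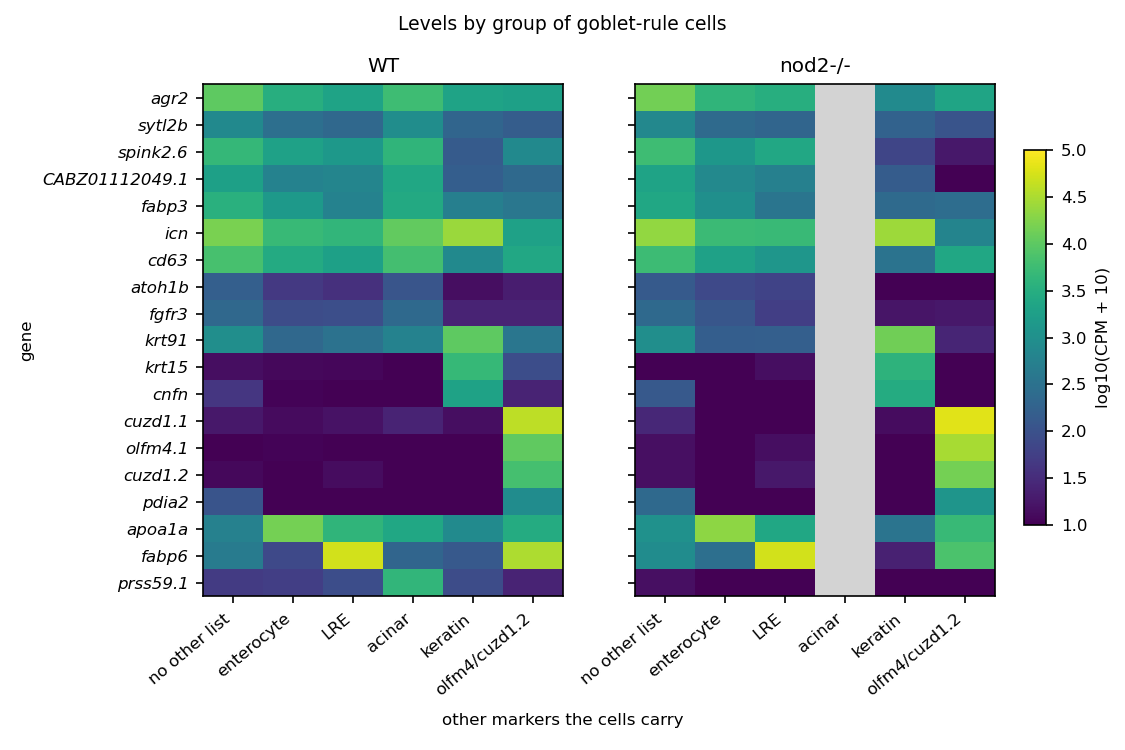
Colour gives log10(CPM + 10) of each gene (rows) in the goblet-rule cells of each marker group (columns; LRE, lysosome-rich enterocyte) of WT (left) and nod2-/- (right), with grey where a group has 0 cells. cuzd1.1 reaches 39788 and 66329 CPM in the olfm4/cuzd1.2 column, where agr2 is 1878 and 2162 CPM, and krt91 reaches 10146 and 13337 CPM in the keratin column.

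Against all other cells, 308 of 5177 genes (5.95%) were at least 2-fold higher in goblet-rule cells of both libraries and 171 (3.3%) at least 2-fold lower, among genes with at least 20 CPM on either side. Ratios of this comparison are log2 with 10 CPM added to both levels. The median over all genes was −0.06 in WT and 0.04 in nod2-/-. The cells had been chosen on some of these genes, and their number past 2-fold was read as a description. Where cells that met another list were left out, the counts became 580 higher and 660 lower. The 20 CPM filter was applied anew there, so these counts are not out of the same 5177 genes.

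The genes with the largest ratios in both libraries were led by agr2 itself, at 4871 against 34.0 CPM in WT and 4726 against 43.5 CPM in nod2-/- (log2 6.79 and 6.47). spink2.6 was next at 2317 against 27.6 CPM and 1926 against 26.5 CPM (5.95 and 5.73). fabp3, a fatty acid-binding protein, stood at 1662 against 34.5 CPM and 852 against 37.3 CPM (5.23 and 4.19). The unnamed genes si:ch73-359m17.9, CABZ01112049.1 and CABZ01080550.1 had ratios between 4.18 and 4.59 in the 2 libraries. The tetraspanin cd63, found on lysosomes and secretory granules, stood at 3599 against 204 CPM and 2080 against 169 CPM (4.08 and 3.54). icn stood at 10656 against 515 CPM and 12792 against 744 CPM (4.35 and 4.09). Among the other rule genes sytl2b had ratios of 3.96 and 3.84, stard10 3.06 and 2.83, and fer1l6 2.68 and 2.79.

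Several of the leading genes were not spread over the goblet-rule cells. olfm4.1, olfm4.2, cuzd1.2 and cnfn were each detected in 4.75% to 5.75% of WT cells and 10.2% to 11.5% of nod2-/- cells. The cells with the most, 10% of all, held 94.14% to 100% of the per-cell sum of these genes, which follows in large part from that low detection. cd63 and icn were carried by nearly every cell, at 98.0% and 97.8% of WT cells and 95.5% and 92.4% of nod2-/- cells. sytl2b was detected in 91.0% and 79.6% of cells, fabp3 in 89.0% and 77.7%.

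At an equal depth of 1000 UMIs per cell (390 WT and 145 nod2-/- goblet-rule cells were deep enough), detection was set beside that in other cells and in cells with leukocyte markers. sytl2b, which helped choose the cells, was detected in 47.4% and 33.1% of thinned goblet-rule cells, in 2.19% and 0.709% of other cells, and in 0.613% and 0% of cells with leukocyte markers, of which 326 and 289 were deep enough. icn was detected in 92.3% and 86.2% of goblet-rule cells, but also in 15% and 17.6% of leukocyte-marker cells and 16.4% and 18.5% of other cells. fabp3 was detected in 66.2% and 51.7%, against 22.4% and 22.5% of leukocyte-marker cells, and cd63 in 84.6% and 70.34% against 33.4% and 26.3%. Of these 4 genes sytl2b, a rule gene, was the least detected in leukocyte-marker cells and cd63 the most.

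The 5 genes lowest in goblet-rule cells relative to other cells were pyyb, a peptide hormone gene, alpi.2, an intestinal alkaline phosphatase, and the apolipoprotein genes apoa4a, apoa1a and apobb.1. apoa4a stood at 82.3 against 376 CPM in WT and 43.5 against 249 CPM in nod2-/-, a ratio of −2.06 and −2.27. apoa1a stood at 5271 against 17578 CPM and 6756 against 23802 CPM, a ratio of −1.74 and −1.82. Among the other cells, 2837 of 5491 in WT and 2520 of 5442 in nod2-/- carried enterocyte markers and no other list.

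Genes of the secretory pathway were taken from the ER membrane onward. Of 40 measured genes of ER translocation and folding, 20 were at least 2-fold higher in both libraries and 0 lower, beside 5.95% and 3.3% of all genes, the background for each list below, with a median of 0.98 in WT and 1.15 in nod2-/-. hspa5 (BiP), the main ER chaperone, was 335 against 129 CPM in WT and 368 against 78.7 CPM in nod2-/-. ssr3, of the translocon-associated complex, was 375 against 109 CPM and 325 against 104 CPM. serp1, which stabilises nascent membrane proteins, was 155 against 43.3 CPM and 174 against 35.8 CPM. Not every folding gene was among them: p4hb stood at 178 against 217 CPM and 176 against 240 CPM. Of 28 ER to Golgi transport genes 9 were past 2-fold higher and 0 lower (medians 0.75 and 0.70), among them the KDEL receptor kdelr2b at 182 against 70.4 CPM and 177 against 69.0 CPM. Of 13 unfolded protein response genes 2 were past 2-fold higher and 0 lower (medians 0.78 and 0.69). These were creb3l1, a membrane-bound transcription factor, at 41.3 against 2.87 CPM and 39.3 against 2.09 CPM, and ern2, the IRE1 gene of mucus-secreting cells in mice, at 22.1 against 4.08 CPM and 18.9 against 2.47 CPM. xbp1, whose transcript IRE1 splices, was 363 against 207 CPM and 269 against 185 CPM.

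Genes that build the sugar side chains of mucins followed. Of 20 genes of O-glycan and sialic acid synthesis, 8 were at least 2-fold higher and 0 lower, with medians of 1.15 and 0.86. st6galnac1.1, a sialyltransferase, was 95.9 against 14.2 CPM in WT and 59.8 against 15.17 CPM in nod2-/-. The sialic acid synthase nansa was 74.7 against 13.9 CPM and 95.9 against 12 CPM, and gnpnat1, of UDP-GlcNAc synthesis, 105 against 25.2 CPM and 64.8 against 17.93 CPM. galnt2, which starts O-glycans, was 277 against 162 CPM and 339 against 154 CPM, past 2-fold in nod2-/- only. Of the mucins and mucus proteins 4 genes were measured, with 0 past 2-fold higher and 1 lower (clca1) and medians of −0.58 and 0.15. muc2.2, muc5.1, muc5.2 and muc5.3 lay below the 20 CPM filter, with 0, 3, 5 and 8 UMIs over the 400 WT cells, and the fourth rule gene muc2.4 was not among the symbols counted. muc13b, a membrane mucin, was 397 against 589 CPM and 416 against 476 CPM, and the galectin lgals2b was 21017 against 8687 CPM and 18997 against 9715 CPM.

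For granule release and calcium handling, 10 of 20 genes were at least 2-fold higher and 0 lower, with medians of 1.39 and 1.19. rap1gap, which switches off Rap1, was 137 against 12.1 CPM in WT and 106 against 9.89 CPM in nod2-/-. The calcium pump atp2a3 was 166 against 25.6 CPM and 131 against 27.0 CPM, and the IP3 receptor itpr3 was 141 against 29.1 CPM and 105 against 21.0 CPM. cplx2, a complexin that acts on vesicle fusion, was 61.3 against 6.44 CPM and 62.3 against 8.42 CPM. In contrast, chloride and bicarbonate transport showed 1 of 10 genes higher (slc12a8, 56.7 against 12.1 CPM and 42.6 against 6.71 CPM) and 2 lower (otop2 and cftr), with medians of −0.98 and −0.82. otop2 and cftr mark BEST4 cells of the epithelium. The BEST4 list was met by 325 WT and 267 nod2-/- other cells, and by 6 and 0 goblet-rule cells.

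Regulators of secretory fate were taken next. Of 11 transcription factors of the secretory lineage 6 were at least 2-fold higher and 0 lower, with medians of 1.73 and 1.24. atoh1b was 65.1 against 6.73 CPM in WT and 50.01 against 5.99 CPM in nod2-/-, foxa3, a forkhead factor, 109 against 18.9 CPM and 83.6 against 14.2 CPM, and her9, of the Hairy family, 249 against 56.4 CPM and 203.3 against 53.8 CPM. Of 7 FGF receptor and feedback genes 4 were higher and 0 lower. The receptor fgfr3 stood at 106 against 5.55 CPM and 82.0 against 4.33 CPM, and fgfr2 at 156 against 22 CPM and 146 against 20.6 CPM. Of 10 Notch pathway genes 1, the ligand dld, was higher (41.9 against 8.23 CPM and 30.3 against 8.70 CPM). With so few genes, 1 of 10 cannot be set apart from the 5.95% of all genes. Of 17 keratin and plaque genes 8 were higher, and krt18a.1, at 2283 against 206 CPM and 1335 against 170 CPM, was detected in 98.2% and 91.7% of the cells, unlike krt15 at 5.5% and 5.1%.

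Stress-linked lists were mixed. Of 23 immediate early and heat shock genes 7 were at least 2-fold higher and 0 lower (medians 0.93 and 0.90), with jun at 899 against 429 CPM in WT and 648 against 309 CPM in nod2-/-. The medians of this list depended on the setting. Over the settings tried they ran from 0.08 to 1.43 in WT and from 0.21 to 1.39 in nod2-/-. Of 8 measured cell death genes, a list the study drew from these same samples and so no independent evidence, 1 was higher. It was the BH3-only gene bik at 75 against 19.8 CPM and 45.9 against 14.9 CPM. With so few genes, 1 of 8 cannot be set apart from the 5.95% of all genes. The 12 genes of sphingolipid synthesis had medians of 0.04 and 0.18, close to those of all genes, with elovl1a and elovl1b past 2-fold higher.

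**Figure D3:**
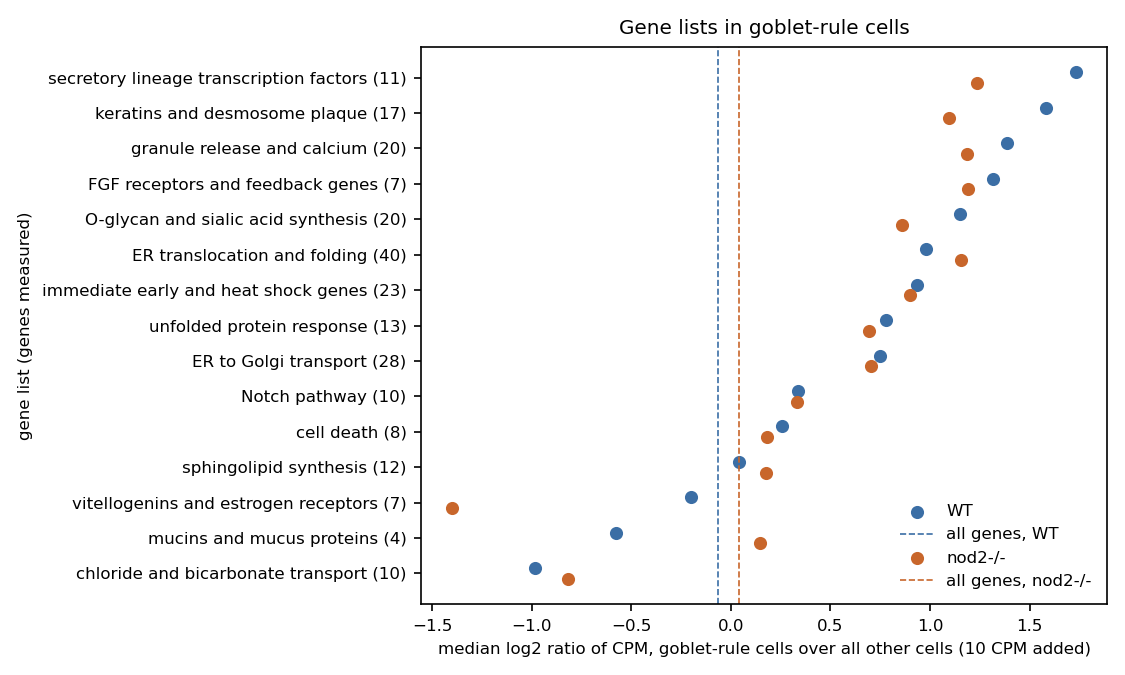
Points give the median log2 ratio of CPM (10 CPM added) of each gene list in goblet-rule cells over all other cells, with the number of measured genes in brackets, WT in blue, nod2-/- in orange, and dashed lines for the median of all genes (−0.06 and 0.04). Secretory transcription factors reach 1.73 and 1.24 and ER folding genes 0.98 and 1.15, while chloride and bicarbonate transport lies at −0.98 and −0.82.

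The genes whose levels followed agr2 most closely over 24 groups of cells (marker groups of both libraries, goblet-rule cells included) were stard10 (Pearson r 0.82), sytl2b (0.80), CABZ01112049.1 (0.78), CABZ01080550.1 (0.74) and serp1 (0.72). Without the goblet-rule groups of the 2 libraries, over 22 groups, the values were 0.69, 0.57, 0.47, 0.42 and 0.59. The groups share libraries and some of the genes chose the cells, so these are descriptions.

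Turning to genotype, the WT library held 6.79% goblet-rule cells (6.16 to 7.46), the nod2-/- library 2.80% (2.39 to 3.27). The log2 ratio of the shares was −1.28 (−1.55 to −1.01). Because the median depth of nod2-/- cells was lower, every cell with at least 1000 UMIs was also thinned to 1000 before the rule was applied. Shallower cells were left out, 1016 in WT and 1505 in nod2-/-, of which 10 and 12 were goblet-rule cells. The rule was then met by 187 of 4875 WT cells and 58 of 4094 nod2-/- cells, a ratio of −1.44. The ratio was −0.98 with no second marker asked for and −1.70 with at least 2 of them. A rule that left agr2 out and asked for at least 2 of the other rule genes found 393 WT and 135 nod2-/- cells, a ratio of −1.47. The share was lower in nod2-/- under each of the settings tried, by amounts between −0.98 and −1.70. With 1 library per genotype, a difference between genotypes cannot be told apart from one between dissociations or pools of fish.

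**Figure D4:**
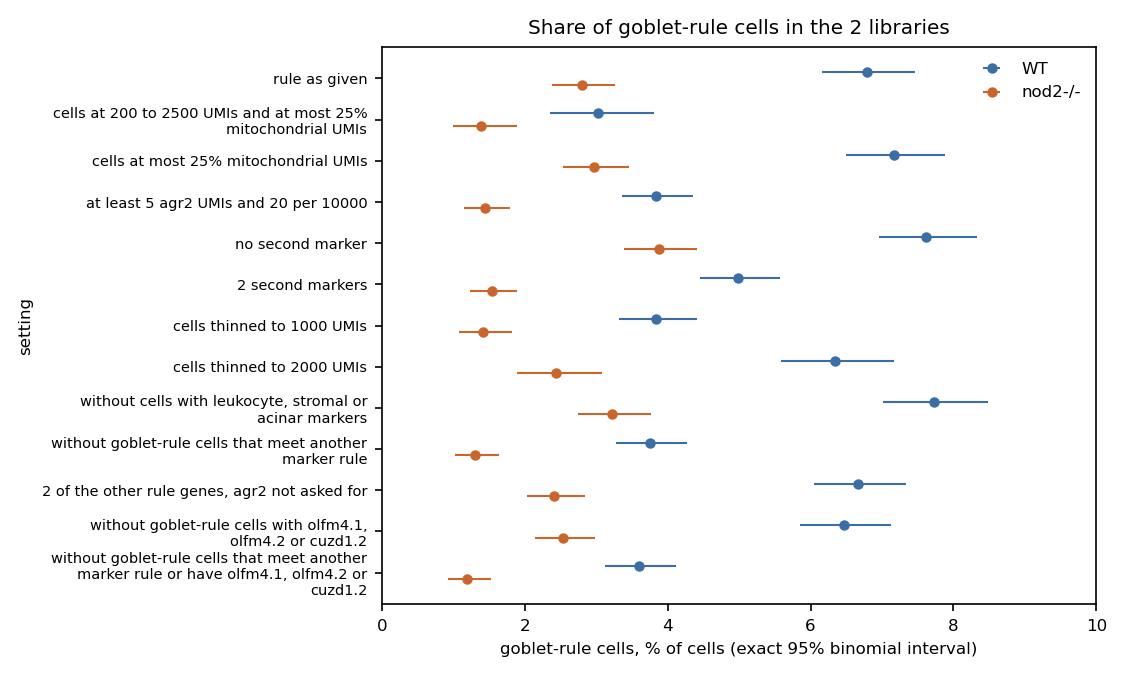
Points give the share of goblet-rule cells in percent of cells in WT (blue) and nod2-/- (orange) with exact 95% binomial intervals (counting error only), for the rule as given and 12 other settings. WT lies above nod2-/- in each row, with 6.79% against 2.80% for the rule as given and 3.02% against 1.39% for cells at 200 to 2500 UMIs.

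The ratio of shares was then taken for each group of goblet-rule cells. Cells with no other list and no olfm4 or cuzd1.2 were 3.48% of the WT library and 1.18% of the nod2-/- library, which gave a ratio of −1.56 (−1.98 to −1.15) in log2. For enterocyte-marker cells the ratio was −1.30 (−1.94 to −0.70). For lysosome-rich enterocyte-marker cells it was −0.47 (−1.28 to 0.32), for keratin-marker cells −0.10 (−1.16 to 0.96) and for olfm4 and cuzd1.2 cells −0.34 (−1.41 to 0.70). The intervals of the last 3 groups include 0, and their few cells leave room for large differences in either direction. Differences between these ratios were not tested. Of the goblet-rule cells, olfm4 and cuzd1.2 cells were 5% (3.08 to 7.62) in WT and 9.55% (5.45 to 15.3) in nod2-/-, and keratin-marker cells 4.5% (2.69 to 7.02) and 10.2% (5.94 to 16.02). The separate intervals overlap in both groups, but overlap does not compare the shares, and their difference was not tested. Acinar-marker cells were 6.75% and 0%, and the acinar marker genes summed to 576 against 56.6 CPM in goblet-rule cells and to 1892 against 92.7 CPM in other cells of WT and nod2-/-.

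Within the goblet-rule cells, 51 of 4646 genes (1.1%) were at least 2-fold higher in nod2-/- than in WT and 40 (0.861%) at least 2-fold lower, counted with 10 CPM added. The median over all genes was 0.03. For single genes the log2 ratio of CPM without that addition is given from here on, with its counting interval, unless 10 CPM added is stated. With the cells that met another list left out, 220 genes were higher and 199 lower, among smaller numbers of cells. The filter was applied anew there too, so these counts are not out of the same 4646 genes.

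Ratios of the goblet genes listed next ran from −0.96 to 0.26, over UMIs pooled from all goblet-rule cells. The leading genes krt91 (0.92, 0.86 to 0.97), olfm4.1, olfm4.2, cuzd1.2 and cnfn lay above this range. In the other cells krt91 was at 2.48 (2.39 to 2.58). Deep cells weigh more in such pools. Keratin-marker cells, counted here also where they carried olfm4 or cuzd1.2, numbered 19 in WT and 16 in nod2-/-. They held 485753 of 3439851 UMIs in WT and 294298 of 1219782 in nod2-/-. The part of this in the ratios was not tested. Of the genes listed next, agr2, sytl2b and fer1l6 chose the cells, so their ratios between genotypes are descriptions. agr2 was 4871 CPM in WT and 4726 CPM in nod2-/-, a ratio of −0.04 (−0.09 to −0.00). sytl2b was 408 and 283 CPM (−0.53, −0.70 to −0.36), fer1l6 82.0 and 76.2 CPM (−0.10, −0.46 to 0.24) and spink2.6 2317 and 1926 CPM (−0.27, −0.33 to −0.20). fabp3 was 1662 and 852 CPM (−0.96, −1.06 to −0.87), cd63 3599 and 2080 CPM (−0.79, −0.85 to −0.73), and CABZ01080550.1 1192 and 679 CPM (−0.81, −0.92 to −0.70). icn was 10656 and 12792 CPM (0.26, 0.24 to 0.29). fabp3 was at 0.11 (−0.02 to 0.25) in the other cells, whereas CABZ01080550.1 was at −1.39 there too.

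In the cells with no other list and no olfm4 or cuzd1.2 the same genes gave a partly different picture. agr2 was 10230 CPM in WT and 14223 CPM in nod2-/-, a ratio of 0.48 (0.42 to 0.53), icn 0.54 (0.50 to 0.59) and spink2.6 0.34 (0.25 to 0.43). sytl2b was −0.12 (−0.37 to 0.12) and zgc:112994 −0.03 (−0.34 to 0.27), so that their intervals included 0. fabp3 at −0.48 (−0.61 to −0.35), cd63 at −0.36 (−0.45 to −0.27) and CABZ01080550.1 at −0.36 (−0.50 to −0.21) stayed below 0, and tm4sf4, a tetraspan membrane protein, was 2714 and 1583 CPM (−0.78, −0.94 to −0.62). The sign of the agr2 and spink2.6 ratios thus depended on which goblet-rule cells were counted. The median depth of these cells was 4612 UMIs in WT and 3161.5 in nod2-/-, and its part in the ratios was not tested.

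The nod2-/- over WT medians of the lists in this paragraph ran from −0.35 to 0.18 over all goblet-rule cells. The median over all genes was 0.03. With 10 CPM added, 0 genes of the lists in this paragraph were past 2-fold in either direction, pdia6 and fev included. Over all genes 1.1% were past 2-fold higher and 0.861% lower. The share of all genes below 0 was not counted, so the counts below 0 have no background. For ER translocation and folding the median was 0.18, with 10 of 40 genes below 0. hsp90b1 was 178 CPM in WT and 283 CPM in nod2-/- (0.67, 0.48 to 0.86) and pdia6 41.3 and 87.7 CPM (1.09, 0.71 to 1.46), against −0.12 and −0.04 in the other cells. In cells with no other list and no olfm4 or cuzd1.2, hsp90b1 was 269 and 337 CPM (0.32, −0.06 to 0.70) and pdia6 68.1 and 155 CPM (1.19, 0.56 to 1.80). Secretory transcription factors had a median of −0.35 with 9 of 11 genes below 0. Among them fev, an ETS factor, was 59.0 and 27.9 CPM (−1.08, −1.65 to −0.55) against 0.29 in the other cells, but 128 and 93.1 CPM (−0.46, −1.20 to 0.21) in cells with no other list and no olfm4 or cuzd1.2. foxa3 was 109 and 83.6 CPM (−0.39, −0.72 to −0.07). FGF genes had a median of −0.33 (5 of 7 below 0) and granule genes −0.15 (15 of 20 below 0). For O-glycan synthesis the median was −0.01. Its sialic acid genes pointed both ways, with nansb at 231 and 143 CPM (−0.70, −0.94 to −0.46), cmah at 197 and 127 CPM (−0.63, −0.89 to −0.38, against −0.40, −0.83 to 0.00, in cells with no other list and no olfm4 or cuzd1.2), and nansa at 74.7 and 95.9 CPM. In the cells with no other list and no olfm4 or cuzd1.2 the medians were 0.30 for ER folding, 0.30 for O-glycan synthesis, −0.42 for transcription factors, −0.04 for FGF genes and −0.01 for granule genes. Over all goblet-rule cells, immediate early and heat shock genes had a median of −0.17 (19 of 23 below 0), and the 8 cell death genes one of −0.16 (5 of 8 below 0), with bik at 75 and 45.9 CPM (−0.71, −1.15 to −0.29). The study showed its cell death genes for a difference between genotypes in these same samples, so their ratios are no independent evidence.

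Among the 10 genes with the largest positive ratios, 4 were hormone, neuropeptide or granin genes with most of their nod2-/- UMIs in single cells. Of 987 UMIs of adcyap1a (PACAP) in nod2-/- 971 came from 1 cell, which met the enteroendocrine list and held 10 agr2 UMIs. The same cell gave 70 of 90 UMIs of the granin gene scg3. For insl5a, an insulin-like peptide, 300 of 394 UMIs came from 1 cell, and for penka, proenkephalin, 75 of 76. Among the lowest 10, gcga and gcgb, both glucagon genes, had 436 of 475 and 190 of 211 WT UMIs in 1 keratin-marker cell. Without the cell with most UMIs in each library, counts of 12 and 16 UMIs were left for adcyap1a, 22 and 20 for scg3, 13 and 94 for insl5a, 17 and 1 for penka, and 39 and 14 for gcga. The insl5a ratio was then 4.38 (3.54 to 5.34), and in cells with no other list and no olfm4 or cuzd1.2 it had 10 and 0 UMIs.

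A second set of genes was higher in the other cells of the nod2-/- library as well. vtg1, the yolk protein vitellogenin that estrogen induces in fish liver, had 2 UMIs in WT and 48 in nod2-/-, spread over 39 of the 157 cells with at most 3 in any of them (6.08, 4.15 to 9.17). In the other cells its ratio was 6.83, and its level there was 2.16 and 245 CPM. grn2, a granulin, had 32 and 100 UMIs (3.14, 2.55 to 3.76) against 3.26 in other cells. fkbp5, a glucocorticoid-responsive immunophilin, had 100 and 148 UMIs (2.06, 1.69 to 2.44) against 3.24, ulk2, an autophagy kinase, 110 and 157 UMIs (2.01, 1.65 to 2.37) against 1.78, and ms4a17a.16 29 and 63 UMIs (2.62, 1.96 to 3.30) against 1.95. The estrogen receptor gene esr2b stood at 50 and 156 CPM (1.64, 1.33 to 1.95) against 1.32 in other cells. With 10 CPM added, the 3 measured genes of the vitellogenin and estrogen receptor list had a median of 1.47, against 1.23 in other cells. The part of RNA free in the droplets was not tested.

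The lowest genes included 5 digestive protease genes of the exocrine pancreas. Those were prss59.1 (468 and 1 UMIs), prss59.2 (363 and 4), cela1.6 (525 and 11), ctrb1 (349 and 5) and ela2l (190 and 2), and beside them stood the unnamed si:ch211-240l19.8 (382 and 3). Ratios of these 6 genes were −4.08 to −7.37 in goblet-rule cells and −4.31 to −4.88 in the other cells. The 27 acinar-marker cells, all of WT, held 291 of the 468 WT UMIs of prss59.1. In cells with no other list and no olfm4 or cuzd1.2 few UMIs remained, 41 and 1 for prss59.1 (−3.19, −8.53 to −0.63), 38 and 2 for cela1.6 (−2.08, −5.18 to −0.13), 32 and 0 for ctrb1, 29 and 3 for prss59.2 (−1.10, −3.46 to 0.59), 24 and 2 for si:ch211-240l19.8 (−1.42, −4.54 to 0.59) and 16 and 1 for ela2l (−1.83, −7.22 to 0.85). For the last 3 of these the interval includes 0. luzp2 had 216 and 4 UMIs (−4.26, −6.15 to −2.88) and −3 in the other cells. The luzp2 difference was thus present in goblet-rule cells and in the rest of the gut.

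**Figure D5:**
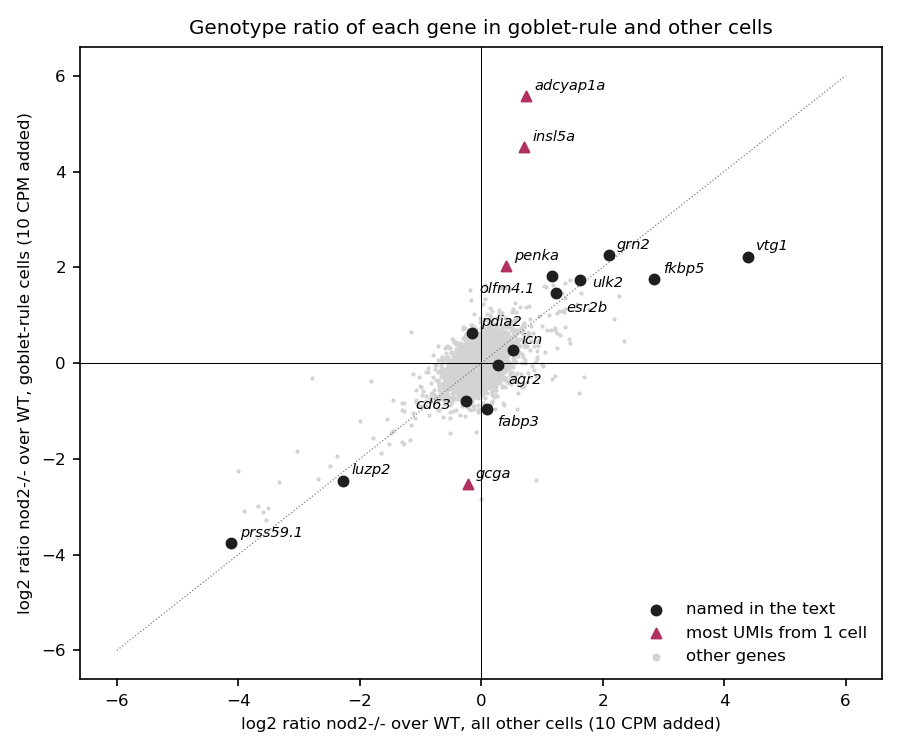
Each point is a gene with at least 20 CPM in the goblet-rule cells of a library, placed by its log2 ratio of nod2-/- over WT (10 CPM added) in all other cells (horizontal) and in goblet-rule cells (vertical), with the dotted line for equal ratios. luzp2 and prss59.1 lie near the line, the triangles (adcyap1a, insl5a, penka, gcga) mark genes with most UMIs from 1 cell, and fabp3 and cd63 lie below it.

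The olfm4 genes and cuzd1.2 were also higher in nod2-/-, over all goblet-rule cells and over the other cells, although the olfm4.1 ratio turned to −4.20 (10 CPM added) in goblet-rule cells at 200 to 2500 UMIs. olfm4.1 was 839 CPM in WT and 2969 CPM in nod2-/- (1.82, 1.75 to 1.89), against 1.43 in the other cells, and cuzd1.2 530 and 1473 CPM (1.47, 1.38 to 1.57) against 1.57. Within the 20 and 15 cells that carried them, olfm4.1 was 10544 and 29526 CPM, while such cells were 5% and 9.55% of goblet-rule cells, a difference that was not tested. Elsewhere, itln2, an intelectin lectin, was 29.1 and 104 CPM (1.84, 1.45 to 2.23) its 100 WT UMIs lying in 22 cells and its 127 nod2-/- UMIs in 15. cftr was 17.2 and 45.9 CPM (1.42, 0.87 to 1.97), in 17 and 10 cells. The marker gene cnfn, not itself a keratin, (1.27, 1.14 to 1.40) and the keratin gene krt5 (1.25, 0.95 to 1.55) were past 2-fold higher. The keratin genes krt94 (−2.66, −3.05 to −2.29) and krt97 (−1.32, −1.77 to −0.89) were past 2-fold lower. In the other cells cnfn was at 3.17 (2.87 to 3.49), krt5 was 3.95 and 37.7 CPM, and krt97 was 170 and 74.1 CPM. Of the cnfn UMIs 973 of 1012 in WT and 838 of 865 in nod2-/- lay in keratin-marker cells, in which cnfn was 2043 and 2847 CPM. krt94 rested on few cells, with 337 of 1120 WT UMIs in 1 cell and 53 of 63 nod2-/- UMIs in another.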

How the data were processed

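Whole-intestine cells were captured with 10x Chromium 3' chemistry. The authors aligned reads to GRCz11 and counted UMIs with Cell Ranger 7.0.1 (submitters' notes and the study's methods), and the deposited values are raw UMI counts per gene and cell. The deposited 5891 and 5599 barcodes match the cell number the study states. Its stated limits of 200 to 2500 UMIs and at most 25% mitochondrial UMIs would leave 2252 and 2872, and no cell was under 500 UMIs. All barcodes were used. The goblet-rule cells, gene lists and named genes were chosen with earlier results of these data known. The marker minimums (5, 20 or 100 UMIs per 10000, and at least 2 markers) were set after their ranges had been seen. An enterocyte call needed no other list to be met.

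UMIs were summed per library over goblet-rule cells and over all others and scaled to CPM. Log2 ratios used 10 CPM added to both sides, genes needed 20 CPM in a group compared, and 2-fold was the limit for a call. Intervals of CPM ratios and shares are exact binomial ones at the 95% level. Those of CPM ratios were checked on simulated pooled counts that had no spread between cells. UMIs of 1 cell are not replicates, so intervals cover counting error only. The 15 highest and 5 lowest genes against other cells needed 100 CPM. The 10 highest and 10 lowest by genotype needed 50 UMIs over both libraries and an interval without 0. Within lists 2 to 6 genes were named, those with most UMIs or past 2-fold first, and others named beside these were chosen after their values were seen. Symbols shared by several identifiers were counted apart. Gene names of unnamed identifiers came from the supplied name table. Tools were Python 3.11.15, numpy 2.4.6, scipy 1.17.1, pandas 2.3.3, R 4.3.3 and edgeR 4.0.16, the last for TMM scaling only. Other filters, offsets, rules, depths and weights of cells were tried as alternatives. One gene that the rule for named genes would list is not reported here.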

Additional observations from a re-analysis of the deposited data

Results flagged for a closer look

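For pyyb the ratio of nod2-/- over WT went opposite ways in goblet-rule cells and in the other cells, with counting intervals that did not overlap and no replicate behind either. It was −3.01 (−5.32 to −1.40) in goblet-rule cells and 0.23 (0.16 to 0.30) in the others, and 59 of its 68 UMIs in WT goblet-rule cells came from 1 cell, with 3 UMIs in nod2-/-.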

How the results depend on the processing

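No paired analysis was possible because each genotype was 1 library, and leaving out a replicate was not possible for the same reason. The share of goblet-rule cells kept its direction under the 12 alternatives, and moved most with no second marker (−0.98), 2 second markers (−1.70) and, an alternative chosen after seeing the data, without cells that met another list or had olfm4 or cuzd1.2 (−1.59). Counts of genes past 2-fold moved more, here given as higher and lower against other cells and then higher and lower in nod2-/-. They were 547, 962, 1155 and 1237 at 200 to 2500 UMIs, 580, 660, 220 and 199 without cells that met another list, 569, 650, 281 and 204 when olfm4 or cuzd1.2 cells were also left out (chosen after seeing the data), 123, 105, 19 and 19 at 100 CPM or more, and 472, 293, 99 and 84 with 1 CPM added. In nod2-/- they were 168 and 111 under the stricter agr2 minimum, 93 higher without the 5% deepest cells, and 111 and 84 as a mean over cells, where 456 were lower against other cells. Fewer cells are pooled in several of these settings. The CPM filter was applied anew in each, so the number of genes measured can differ and the counts are given without shares. Of 15 lists, 12 had a median above that of all genes against other cells, and 10 to 12 did under the alternatives. The direction of 6 named genes turned, with ratios here taken with 10 CPM added and given without intervals. adcyap1a was −0.65 under the stricter agr2 minimum, −0.89 without cells of another list and −0.92 with olfm4 or cuzd1.2 cells also left out, and insl5a −0.52, −1.03 and −0.99, and −2.50 at 200 to 2500 UMIs. scg3 was −0.33 under the stricter minimum and −0.95 at 200 to 2500 UMIs. penka was −1.002, −0.95, −0.81 and −0.84 in these 4 settings and −0.47 without its top cell. olfm4.1 was −4.20 at 200 to 2500 UMIs. gcga was 0.015 and 0.050 without cells of another list and with olfm4 or cuzd1.2 cells also left out, 0.35 without the deepest cells and 0.0094 without its top cell. Apart from the top-cell settings the cause was not tested. TMM scaling turned the median over all genes by genotype to −0.04.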

Other observations

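Outside the rule, agr2 was not spread evenly over the cell groups. It stood at 321 CPM in the 29 WT cells with tuft markers and 765 CPM in the 27 nod2-/- ones, at 389 and 421 CPM in the 10 and 41 keratin-marker cells, and at 175 and 145 CPM in the 46 and 63 progenitor-marker cells. Leukocyte-marker cells stood at 33.0 and 20.4 CPM and enterocyte-marker cells at 13.6 and 14.95 CPM. These are levels below the rule's minimum in each cell or in cells without a second marker. icn was high in enteroendocrine-marker cells too, at 12114 and 13540 CPM with sytl2b at 7.0 and 6.9 CPM, and in tuft-marker cells at 8379 and 6567 CPM.

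Cells with at least 2 UMIs of an olfm4 gene or of cuzd1.2 numbered 61 in WT and 68 in nod2-/-, 1.03% and 1.21% of the libraries, of which 20 and 15 were goblet-rule cells. Of the 41 and 53 outside the rule, 21 and 28 held an agr2 UMI. Of the 393 WT and 135 nod2-/- cells with at least 2 of sytl2b, stard10 and fer1l6, 74.8% and 63.7% were goblet-rule cells, and 49 and 18 held 0 agr2 UMIs.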
